A study of Homo sapiens with 23 samples.

Results

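The 6 arrays of MCF10A WT cells grown in 2D culture fell into 2 sets, replicates 1, 5 and 6 and replicates 2, 3 and 4. These 6 arrays are 6 of 23 in the series, and the 2 sets hold 3 arrays each. The sets were chosen from the measured values of these same arrays. Every difference between them is therefore a description, with no test. A gene was called a set gene when no array of one set overlapped the other and the mean log2 signals differed by at least 1, that is 2-fold. Just inside that limit lay MIF4GD (log2 difference 1.01) and LMF2 (-1.0015), and just outside it lay GABRA2 (0.999) and IRF2BP1 (-0.999). All differences are replicates 1, 5 and 6 minus replicates 2, 3 and 4.

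MCF10A is a non-tumorigenic, immortalised human mammary epithelial line with basal features. The study set unmodified cells (WT) beside an ErbB2-engineered derivative, MCF10A/ErbB2* (here ErbB2*), each in 2D and 3D culture. Beside the 6 WT arrays in 2D, ErbB2* cells had 6 arrays in 2D and 6 in 3D, and WT cells had 5 in 3D. The labels give no passage, plating density, harvest day or chip for any sample, and describe neither the construct nor the 3D culture. Each group is 1 cell line. Nothing states that replicates came from separate cultures, so the spread between arrays may be technical.

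IRF1 is a transcription factor of the interferon response. It is itself induced by interferon and acts on antigen processing genes. Epithelial cells join each other through adherens junctions, where cadherins bind catenins, and through desmosomes, where desmogleins and desmocollins bind plakoglobin and desmoplakin. Hemidesmosomes, with integrin beta 4 and a laminin that holds the LAMB3 chain, hold basal cells to the matrix. Crowding of a culture is known to alter junctions, YAP and TEAD targets and the cell cycle, and these gene groups were listed for that reason.

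The promoters of the genes at both ends of the difference are shown because IRF1 had the highest and CDC42BPB the lowest difference. Both are the 250 bases before the gene's start in RefSeq on GRCh38.p14, minus strand, printed 5′ to 3′. IRF1 lies at chr5:132490774-132491023 and CDC42BPB at chr14:103057550-103057799. Capitals mark matches on either strand to TTCNNNGAA, the palindrome of STAT family sites, and to GGGCGG, the core of an Sp1 site.
IRF1: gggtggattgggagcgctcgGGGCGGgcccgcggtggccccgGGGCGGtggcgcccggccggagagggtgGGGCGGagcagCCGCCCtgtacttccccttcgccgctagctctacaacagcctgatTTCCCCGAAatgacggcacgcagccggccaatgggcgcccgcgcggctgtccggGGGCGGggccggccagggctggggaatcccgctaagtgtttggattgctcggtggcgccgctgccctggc
CDC42BPB: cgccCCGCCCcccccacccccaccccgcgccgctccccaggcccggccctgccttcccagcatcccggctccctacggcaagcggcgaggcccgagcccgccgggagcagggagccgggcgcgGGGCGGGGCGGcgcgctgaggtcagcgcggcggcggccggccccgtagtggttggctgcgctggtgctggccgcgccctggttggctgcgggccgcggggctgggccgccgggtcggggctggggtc

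The IRF1 promoter holds 1 match to TTCNNNGAA, from base 127 of the printed run, and 5 to GGGCGG. The CDC42BPB promoter holds 0 and 3, and 2 of the 3 overlap by 1 base. Among 27305 promoters of this length, 6.78% hold TTCNNNGAA and 42.3% hold GGGCGG. The GC content is 74.4% for IRF1 and 83.6% for CDC42BPB, against a median of 58% over all promoters. A match describes these letters only.

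IRF1 had the highest difference of all set genes. Its normalised log2 signal was 8.37, 8.13 and 8.14 on replicates 1, 5 and 6, and 6.01, 6.04 and 7.05 on replicates 2, 3 and 4. The means were 8.21 ± 0.134 (SD, n = 3) and 6.37 ± 0.591 (SD, n = 3), a log2 difference of 1.85 or 3.60-fold. The sets did not overlap, and replicate 4 was the array of its set nearest to the other. IRF1 was measured by 1 passing probe, so no other probe checks it.

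Both WT sets lay below ErbB2* cells in IRF1. The gene ranged from 9.41 to 9.78, median 9.60, on the 6 ErbB2* arrays in 2D, and from 9.14 to 10.9, median 9.997, on the 6 in 3D. In WT cells in 3D it was 7.37, 7.06, 7.04 and 7.04 on replicates 1 to 4 and 9.20 on replicate 5. Replicates 2 and 3 of WT in 2D were thus below every array outside WT 2D, and replicates 1, 5 and 6 were above 4 of the 5 WT arrays in 3D.

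**Figure D1:**
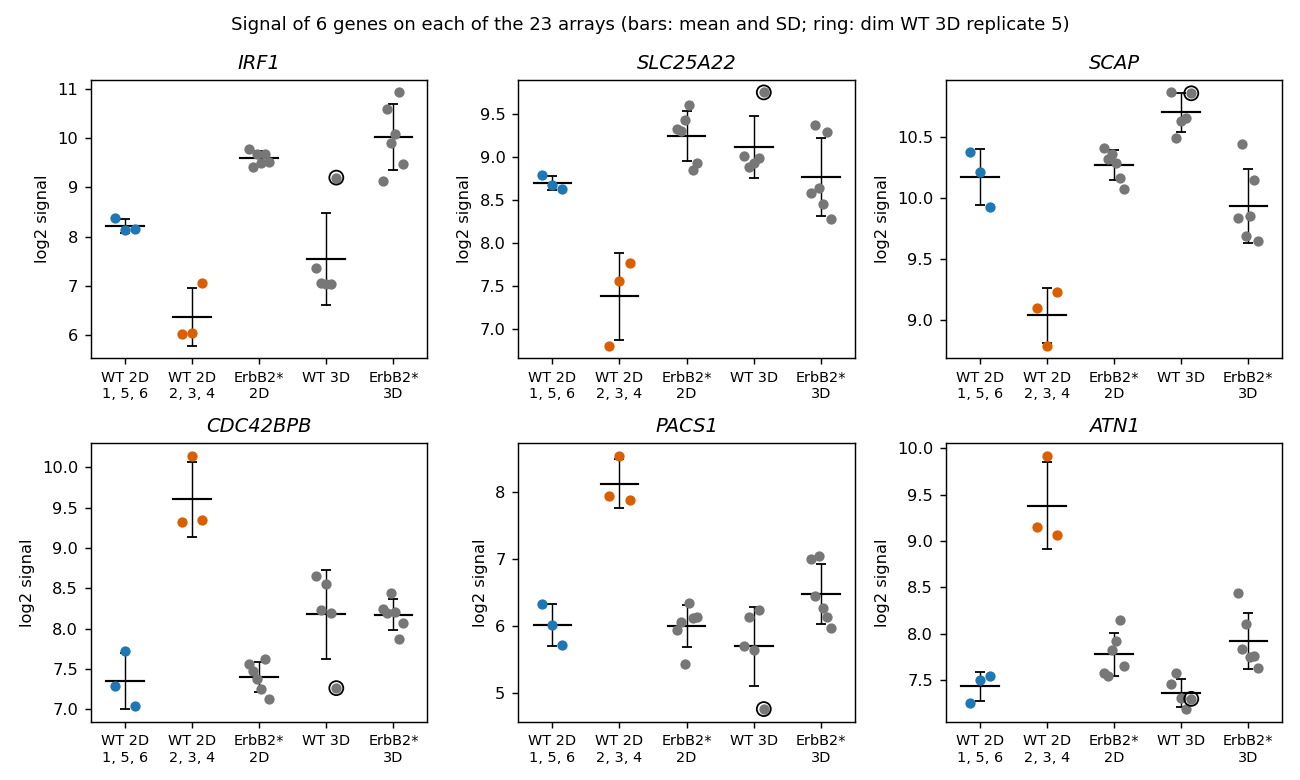
Normalised log2 signal of 6 genes on each of the 23 arrays, by group on the horizontal axis, with WT 2D split into its 2 sets; points are arrays, bars the mean and SD, and the ring marks the dim replicate 5 of WT cells in 3D. IRF1, SLC25A22 and SCAP are low on replicates 2, 3 and 4, while CDC42BPB, PACS1 and ATN1 are high there, at or above 9.32, 7.89 and 9.07.

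The next 3 genes higher in replicates 1, 5 and 6 were SLC25A22, a mitochondrial glutamate carrier, PRSS8, the epithelial membrane protease prostasin, and UBE2J2, a ubiquitin-conjugating enzyme of the endoplasmic reticulum. SLC25A22 was 8.79, 8.68 and 8.63 against 6.81, 7.57 and 7.77 (log2 difference 1.32, 2.49-fold). PRSS8 was 7.06, 6.88 and 7.15 against 5.81, 5.47 and 5.99 (1.27, 2.42-fold). UBE2J2 was 7.71, 7.58 and 7.42 against 6.28, 6.41 and 6.30 (1.24, 2.36-fold). The arrays of each set lay close together in UBE2J2, but its other passing probe gave -0.21. SCAP, which escorts the sterol-regulated transcription factors, was the brightest of the 10 highest genes across arrays. Its signal was 10.4, 10.2 and 9.92 against 9.098, 8.79 and 9.23 (1.14, 2.20-fold).

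The other 5 of the 10 highest were REEP6 (1.24), an endoplasmic reticulum membrane protein, GFOD2 (1.21), ADAMTSL4 (1.15), a secreted protein of microfibrils, CTRC (1.15), the digestive protease chymotrypsin C, and UNC119 (1.14), a chaperone of lipidated proteins. CTRC and UNC119 were each detected on 2 of the 3 arrays of replicates 2, 3 and 4. The other ADAMTSL4 probes gave 0.23 and 0.02 with overlapping sets.

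CDC42BPB, a kinase that acts on myosin downstream of CDC42, had the lowest difference. It was 7.28, 7.72 and 7.04 on replicates 1, 5 and 6 and 9.32, 10.1 and 9.34 on replicates 2, 3 and 4. The means were 7.35 ± 0.346 and 9.60 ± 0.469 (SD, n = 3 each), a log2 difference of -2.25 or 4.77-fold. Across the other groups it ranged from 7.13 to 8.65, so replicates 2, 3 and 4 were above every other array.

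PACS1, a sorting protein of the Golgi, was 6.34, 6.01 and 5.72 against 7.95, 8.55 and 7.89 (-2.11, 4.31-fold). PTPN23, which acts in endosomal sorting, was 5.25, 6.34 and 5.72 against 7.65, 7.88 and 7.62 (-1.95, 3.85-fold). ATN1, a transcriptional corepressor, was 7.26, 7.50 and 7.55 against 9.15, 9.92 and 9.07 (-1.94, 3.85-fold). All 3 genes were above every array of the other groups on replicates 2, 3 and 4, and a further ATN1 probe gave -1.45.

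The remaining 6 of the 10 lowest were UBALD1 (-1.92), the branch point binding splicing factor SF1 (-1.89), the histone H3 lysine 4 demethylase KDM5C (-1.88), SSBP3 (-1.87), PPDPF (-1.83) and the inositol phosphate kinase ITPK1 (-1.74). ITPK1 was 7.65, 7.58 and 7.68 against 9.50, 9.46 and 9.18, so the arrays of each set lay close together. SSBP3 was detected on 1 of replicates 1, 5 and 6, and KDM5C on 2 of them. Other probes gave -0.79 for SF1 and -0.29 for SSBP3.

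Over all genes the sets did not overlap in 3372 of 10954 tested genes (30.8%). Of these 1866 (17%) were higher in replicates 1, 5 and 6 and 1506 (13.7%) in replicates 2, 3 and 4. At 2-fold the balance differed, with 31 set genes (0.283%) higher in replicates 1, 5 and 6 and 185 (1.69%) higher in replicates 2, 3 and 4, together 216 (1.97%). The median difference over all genes was 0.05 and the median absolute difference 0.21, beside a median within-set SD of 0.19. Scaling arrays by their median, without quantile normalisation, put the median of all genes at 0.19 and the split to 60 and 112 set genes, and the values normalised by the authors gave 0 and 28. Without background correction there were 2 and 54 set genes. Where counts under median scaling are given for a gene list below, no share of all genes under that scaling stands beside them. The median of all genes moved towards replicates 1, 5 and 6 under that scaling, so a list's counts may move with it.

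**Figure D2:**
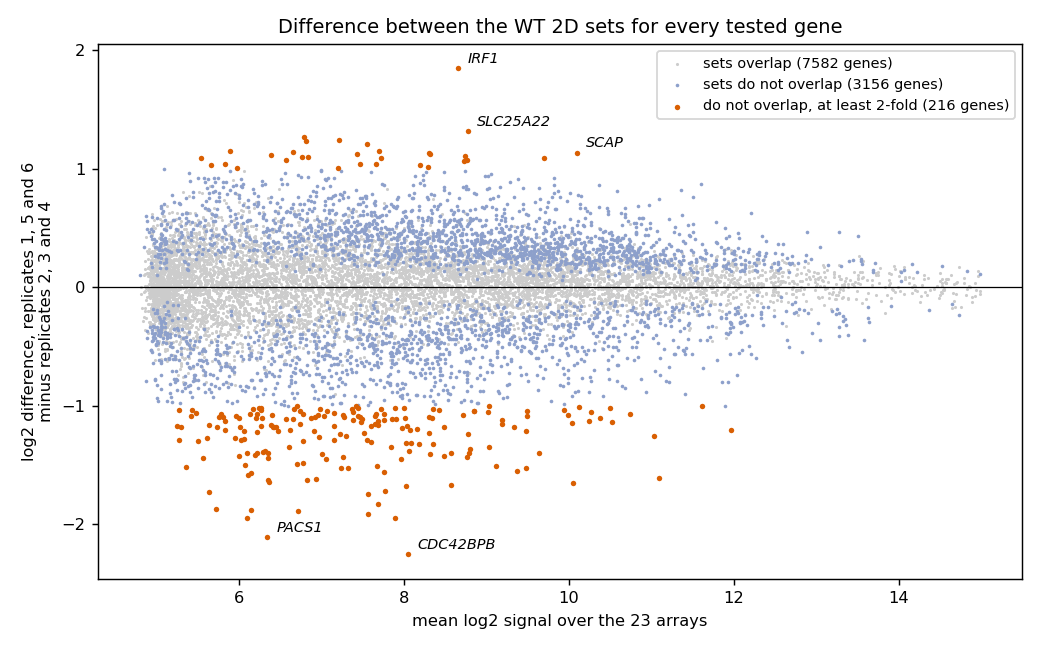
Log2 difference between the WT 2D sets for each of 10954 genes against the mean log2 signal over 23 arrays. Genes whose sets do not overlap are blue, the 216 set genes orange; the 2-fold genes lie mostly below 0 and mostly at low and middle signal.

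The arrays of a set resembled each other more than those of the other set, as the choice of sets requires. Pearson correlations across genes were 0.987 to 0.989 for the 6 pairs within a set and 0.975 to 0.981 for the 9 pairs between sets. The first principal component of the 6 arrays held 46.5% of their variance and placed replicates 1, 5 and 6 at 17.4 to 20.7 and replicates 2, 3 and 4 at -23.4 to -17.1.

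Array brightness moved with the sets. The mean raw probe signal was 437.8, 409.4 and 384.2 on replicates 1, 5 and 6 and 372.5, 364.0 and 333.6 on replicates 2, 3 and 4, without overlap. The share of probes detected did not separate them, at 31.9%, 32.8% and 34.6% against 34.2%, 33.1% and 32.6%. On the 16 arrays outside WT 2D other than WT 3D replicate 5, the mean signal was 382.0 to 581.6 and 30.9% to 34.3% of probes were detected. Replicates 2, 3 and 4 were thus dimmer than all 16, and replicates 1, 5 and 6 were within their range of brightness. The part of brightness in the differences was not tested. WT 3D replicate 5 stood apart from all others, with a mean signal of 150.6, 19.1% of its probes detected and a cell line label naming ErbB2*. Many values that rest on it are therefore given with and without it, and the others with it only. The deposited normalised column of that array also had a rank correlation of 0.503 with its own raw column.

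The MCF10A label was checked against 9 epithelial markers with a probe on the array, including EPCAM, KRT5, KRT14, CDH1 and EGFR. All 9 were detected on all 6 arrays. Their summed level was 16323 to 17835 on replicates 1, 5 and 6 and 22575 to 23277 on replicates 2, 3 and 4, on the linear normalised scale, so it moved with the sets. A linear sum is carried mostly by its brightest members. ITGB4 (-0.79), LAMB3 (-0.68), KRT5 (-0.50), CDH3 (-0.43), EGFR (-0.35) and KRT18 (-0.25) were lower in replicates 1, 5 and 6. EPCAM (0.06), KRT14 (0.10) and CDH1 (0.03) were not, so the markers did not all move with the sets. In total RNA, fewer cells of a kind and less RNA per cell cannot be told apart.

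Marker lists of other cell types did not separate the sets in this way. The summed level of 12 fibroblast markers was 4396 to 4612 against 4499 to 4757, and that of 14 leukocyte markers 1173 to 1348 against 1060 to 1222. The 9 adipocyte markers summed to 668.2 to 686.4 against 607.9 to 681.5, and the 10 endothelial markers to 161.3 to 182.0 against 114.9 to 178.7. All 4 ranges overlapped. Among them 5 fibroblast, 5 leukocyte, 5 adipocyte and 6 endothelial markers were detected on none of the 6 arrays.

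Junction genes were then examined. The list of adherens junction and desmosome genes had the median farthest from that of all genes, at -0.35 over 17 tested members. In 7 of them the sets did not overlap with higher values in replicates 2, 3 and 4, and in 1 with higher values in replicates 1, 5 and 6, together 47.1% beside 30.8% of all genes. None reached 2-fold. Under median scaling the list's median was -0.12 beside 0.19 for all genes, and the counts were 3 and 2. CTNNB1, the gene of beta-catenin, was 8.46, 8.33 and 8.45 against 9.39, 9.15 and 9.20 (-0.84, 1.79-fold), and its other probe gave -0.73.

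DSG3, a desmoglein, was 7.75, 7.68 and 6.92 against 7.88, 8.33 and 8.08 (-0.65, 1.57-fold). The other 5 genes higher in replicates 2, 3 and 4 were DSC3 (-0.59), JUP (-0.46), which encodes plakoglobin, CDH3 (-0.43), DSG2 (-0.40) and NECTIN2 (-0.36). NECTIN1 ran the other way (0.23). The E-cadherin gene CDH1 differed by 0.03 and CTNNA1 by -0.07, both with overlapping sets. DSP (-0.35) and PKP3 (-0.59) had overlapping sets too.

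The list of tight junction and polarity genes had 13 tested members, with a median of 0.09. The sets did not overlap in 3 with higher and 2 with lower values in replicates 1, 5 and 6 (38.5% beside 30.8% of all genes). Under median scaling the counts were 6 and 1 and the median 0.28 beside 0.19 for all genes. CLDN12 (0.44), CXADR (0.43) and CLDN23 (0.36) were higher in replicates 1, 5 and 6, and ST14 (-0.50) and TJP1 (-0.26) in replicates 2, 3 and 4.

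Among genes of the basal cell, ITGB4, LAMB3 and KRT5, the gene of keratin 5, had the lowest differences. Of 16 basal and myoepithelial genes the sets did not overlap in 6 higher in replicates 2, 3 and 4 and in 2 higher in replicates 1, 5 and 6 (50% beside 30.8% of all genes), with a median of -0.14. Median scaling turned these counts to 2 and 4 and put the list's median at -0.0092, beside 0.19 for all genes. ITGB4, integrin beta 4, was 10.3, 10.6 and 10.1 against 11.3, 11.1 and 11.02 (-0.79, 1.73-fold), and its other probe gave -1.51. LAMB3, the laminin chain of hemidesmosomes, was 11.9, 12.1 and 11.8 against 12.5, 12.7 and 12.6 (-0.68, 1.61-fold), with -0.48 and -0.03 for its other probes. KRT5 followed (-0.50), while ITGA3 (0.44) and ACTA2 (0.35) were higher in replicates 1, 5 and 6.

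Of 22 matrix, integrin and protease genes 6 were higher in replicates 2, 3 and 4 and 2 in replicates 1, 5 and 6 without overlap, a share of 36.4% near the 30.8% of all genes (median -0.09). Under median scaling it was 4 each way, and the median turned to 0.06 beside 0.19 for all genes. MMP14, a membrane-bound matrix protease, was not detected on replicates 1, 5 and 6. On replicates 2, 3 and 4 its log2 signal was 6.53, 6.81 and 5.58, at least 2.20-fold higher. TIMP3, an inhibitor of such proteases, was 7.002, 7.44 and 7.25 against 7.70, 8.24 and 7.98 (-0.74, 1.67-fold). ITGA5 (0.62) and SPARC (0.50) were the 2 genes that ran the other way.

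Among 17 squamous differentiation genes, which mark the outer layers of stratified epithelia, 3 separated the sets (17.6% beside 30.8% of all genes; median 0.14), 2 of them higher in replicates 1, 5 and 6, against 4 and 1 under median scaling. KRT16 was 9.28, 9.36 and 9.56 against 9.86, 9.76 and 9.95 (-0.46, 1.38-fold), with -0.31 for its other probe. KRTDAP was not detected on replicates 2, 3 and 4 and was at least 1.01-fold higher on replicates 1, 5 and 6. S100A8 differed by 0.19.

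Of 43 tested interferon-stimulated genes, 8 were higher in replicates 1, 5 and 6 and 5 in replicates 2, 3 and 4 without overlap, together 30.2% beside 30.8% of all genes, and the median was 0.12 beside 0.05. Under median scaling the counts were 11 and 3 and the median 0.26 beside 0.19. IFIH1, an RNA sensor, was 6.70, 6.76 and 7.04 against 6.22, 5.71 and 5.27 (1.10, 2.14-fold). BST2 (0.58), UBE2L6 (0.47), GBP1 (0.34) and TAP1 (0.32) were also higher in replicates 1, 5 and 6. The oligoadenylate synthetases OAS3 (-0.60) and OAS1 (-0.31) were higher in replicates 2, 3 and 4, as was OASL (-0.55), which was detected on 1 of the 6 arrays.

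Members of the IRF and STAT families separated the sets in both directions. IRF2, a factor known to oppose IRF1 at shared sites, was 6.18, 4.82 and 5.98 against 6.92, 6.96 and 6.49 (-1.13, 2.19-fold), with 1 of replicates 1, 5 and 6 not detected, and STAT3 (-0.83) and the kinase gene JAK1 (-0.62) were also higher in replicates 2, 3 and 4. STAT6 (0.41), TYK2 (0.38) and IRF9 (0.29) were higher in replicates 1, 5 and 6. Of the 18 members tested, IRF1 included, 4 separated the sets in each direction (44.4% beside 30.8% of all genes), against 6 higher and 2 lower in replicates 1, 5 and 6 under median scaling.

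Of 17 MHC class I and antigen processing genes 4 were higher in replicates 2, 3 and 4 and 2 in replicates 1, 5 and 6. That share was 35.3%, near the 30.8% of all genes, with a median of -0.06. Under median scaling the counts were 1 and 4 (median 0.10 beside 0.19 for all genes). TAPBP, the peptide loading protein tapasin, was 9.28, 9.46 and 9.16 against 9.92, 10.6 and 10.3 (-0.96, 1.94-fold), but its other probe gave -0.02. HLA-B was 9.30, 9.45 and 9.25 against 9.60, 9.89 and 9.65 (-0.38, 1.30-fold). The HLA class I genes are highly alike in sequence, so a probe may not tell them apart. In all 5 tested MHC class II genes the sets overlapped (median -0.16).

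**Figure D3:**
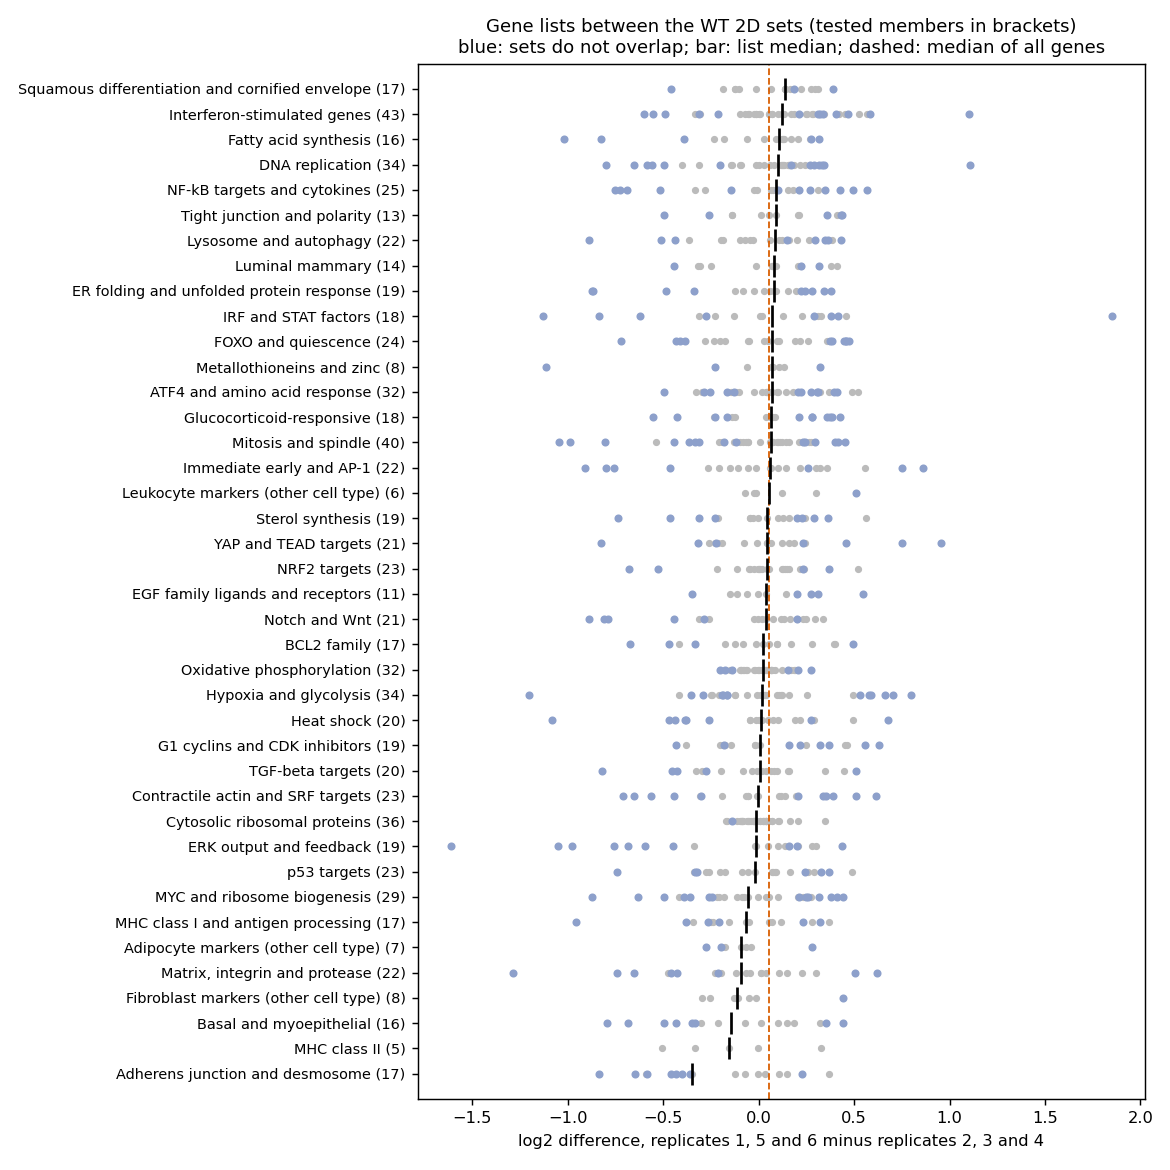
Log2 difference between the WT 2D sets for the tested members of each gene list with at least 5 of them (number in brackets). Grey points are genes whose sets overlap, blue points genes whose sets do not, the black bar is the list's median and the dashed line the median of all genes, 0.05; adherens junction and desmosome genes have the lowest median, -0.35, and most other medians lie within 0.1 of the dashed line.

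Growth and cell cycle lists held members that differed both ways. Their balance moved with the scaling, as did the median of all genes, from 0.05 to 0.19 under median scaling. Of 34 DNA replication genes 7 were higher in replicates 1, 5 and 6 and 6 in replicates 2, 3 and 4 (38.2% beside 30.8% of all genes; median 0.10), but 20 and 5 (median 0.30 beside 0.19 for all genes) under median scaling. CDT1, a licensing factor, was 9.19, 9.26 and 9.18 against 8.18, 7.87 and 8.25 (1.11, 2.15-fold), while LIG1 (-0.80), MCM5 (-0.65) and MCM4 (-0.59) ran the other way. Of 40 mitosis genes 6 were higher in replicates 1, 5 and 6 and 9 in replicates 2, 3 and 4 (37.5% beside 30.8%, median 0.06). Under median scaling the counts were 17 and 3 (median 0.27 beside 0.19 for all genes). FOXM1, a transcription factor of the G2 phase, was 8.80, 9.07 and 8.70 against 9.88, 9.96 and 9.85 (-1.04, 2.06-fold), and CDC20 (0.45) and PLK1 (0.42) ran the other way. MKI67 had overlapping sets (-0.54).

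Of 29 MYC and ribosome biogenesis genes 7 separated the sets in each direction (48.3% beside 30.8% of all genes, median -0.06). Under median scaling 12 were higher and 2 lower in replicates 1, 5 and 6 (median 0.17 beside 0.19 for all genes). MYBBP1A, a nucleolar protein, was 7.30, 7.22 and 6.56 against 7.63, 8.42 and 7.66 (-0.87, 1.83-fold), and CAD, an enzyme of pyrimidine synthesis, was 7.44, 7.70 and 7.88 against 8.07, 8.42 and 8.42 (-0.63, 1.55-fold). Among ribosomal protein genes 1 of 36 separated the sets (2.78% beside 30.8% of all genes), with a median of -0.01. Under median scaling 6 did, with a median of 0.13 beside 0.19 for all genes. Of 21 YAP and TEAD targets 4 were higher in replicates 1, 5 and 6 and 3 in replicates 2, 3 and 4 (33.3%, near the 30.8% of all genes; median 0.04), and 5 and 1 under median scaling. Among them were TEAD4 (0.95) and IGFBP3 (0.75), the latter detected on 1 of replicates 2, 3 and 4, against FOXF2 (-0.83) and CCN1 (-0.32). The defining target CCN2 had overlapping sets (0.16).

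Of 23 p53 targets 3 separated the sets in each direction (26.1% beside 30.8% of all genes; median -0.02), against 6 higher and 1 lower in replicates 1, 5 and 6 under median scaling. SFN, a 14-3-3 protein of epithelia, was 11.1, 10.96 and 11.2 against 11.8, 11.7 and 11.9 (-0.74, 1.67-fold). CDKN1A, the cyclin-dependent kinase inhibitor p21, was 11.6, 11.4 and 11.3 against 10.9, 11.1 and 11.3 (0.37, 1.29-fold) by its brightest probe, but -0.999 by its other one, so its direction was not settled. Of 19 genes of ERK output and feedback 7 were higher in replicates 2, 3 and 4 and 3 in replicates 1, 5 and 6 (52.6% beside 30.8% of all genes; median -0.01), against 6 and 9 under median scaling. HMGA1, a chromatin protein, was among the bright set genes, at 11.2, 11.4 and 11.4 against 12.9, 13.2 and 12.8 (-1.61, 3.05-fold).

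The 216 set genes were next set against the 17 arrays outside WT 2D. Since these genes were chosen for their values on the WT 2D arrays, an excess at the extremes is built in and the shares below are descriptions. Of the 185 genes higher in replicates 2, 3 and 4, these 3 arrays lay above all 17 others in 126 (68.1%), beside 4.73% of all genes. Replicates 1, 5 and 6 lay below all 17 in 1 of the 185. Of the 31 genes higher in replicates 1, 5 and 6, these arrays were above all others in 0 (0% beside 1.52%). Replicates 2, 3 and 4 were below all others in 7 of the 31 (22.6% beside 3.12%). These counts were 131, 8, 0 and 13 without WT 3D replicate 5 (70.8%, 4.32%, 0% and 41.9%). The shares of all genes were then 5.16%, 2.12%, 1.92% and 4.04%.

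On a gene-centred scale the median of the 185 genes was 0.86, 0.996 and 0.91 on replicates 2, 3 and 4. On replicates 1, 5 and 6 it was -0.34, -0.33 and -0.36, and on the 16 other arrays without WT 3D replicate 5 it lay between -0.31 and 0.22. Replicates 1, 5 and 6 lay just below this range and replicates 2, 3 and 4 farther above it, on genes chosen by these same 6 arrays. The median of the 31 genes was -0.90, -1.0026 and -0.80 on replicates 2, 3 and 4. WT 3D replicate 5 gave -1.68 for the 185 genes. Over all genes, the root mean square distance to the mean of ErbB2* cells in 2D was 0.435 for replicates 1, 5 and 6 and 0.529 for replicates 2, 3 and 4, beside 0.368 between the sets.

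**Figure D4:**
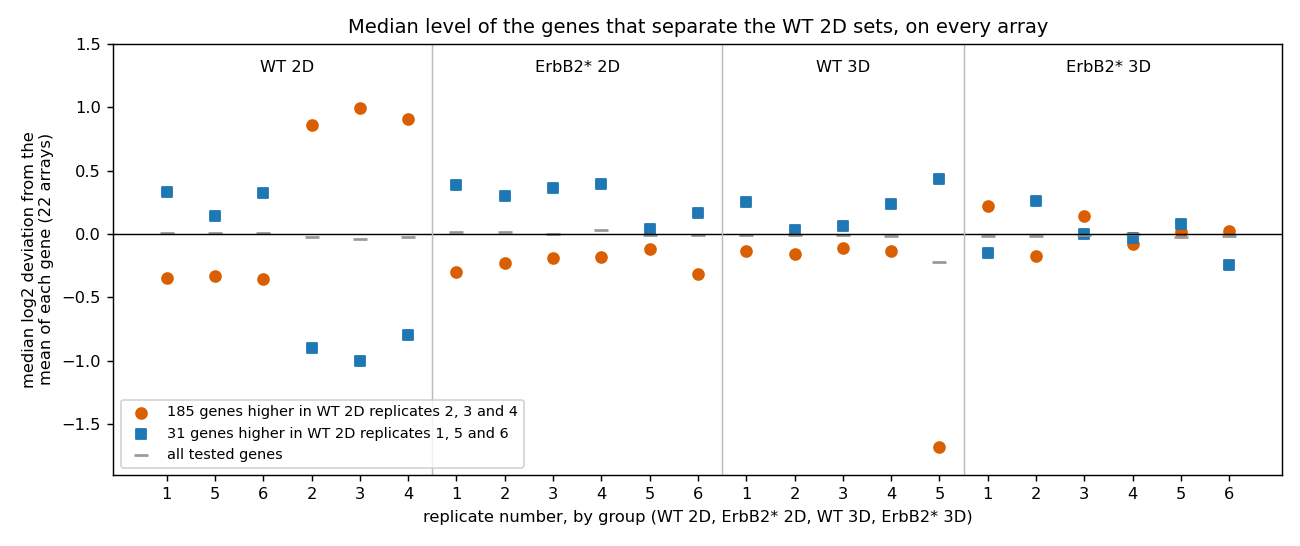
Median log2 deviation from each gene's mean over 22 arrays, for the 185 genes (orange) and 31 genes (blue) that separate the WT 2D sets and for all tested genes (grey), on each of the 23 arrays by group and replicate. Replicates 2, 3 and 4 of WT 2D are the arrays with the orange points from 0.86 to 0.996; WT 3D replicate 5 is at -1.68.

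The set genes shared features that the rule did not use. Of the 185 genes 33 lie on chromosome 19 (17.8% beside 6.41% of all tested genes), 22 on chromosome 16 (11.9% beside 4.56%), 18 on chromosome 11 (9.73% beside 5.75%) and 17 on chromosome 17 (9.19% beside 5.94%). None lies on chromosomes 13, 18 or 21, which hold 1.79%, 1.42% and 1.06% of the tested genes. The median span of the gene in the genome was 23.7 kb for the 185, 11.5 kb for the 31 and 29.3 kb for all. Promoter sequences matched 139 of the 185 (75.1%), under the 80% needed, so a check of promoter GC content over these genes is void.

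Other probes of the same genes moved with the 185 more than with the 31. These probes were read on the 6 arrays that chose the genes, so they are no separate check of the sets. Of the 185 genes 40 had 50 other passing probes, with a median of -0.59. Of these 44 had the same direction, 28 without overlap and 14 at 2-fold. Among all genes 13.7% were higher in replicates 2, 3 and 4 without overlap, and 1.69% also at 2-fold. Of the 31 genes 7 had 8 other passing probes, with a median of -0.14. Of these 3 had the same direction, 0 of them without overlap. The other ECM1 probe separated the sets the opposite way, at -0.45 against 1.09 for the brightest probe. RNA28SN5, a ribosomal RNA listed among the 185, was 10.8, 10.4 and 10.3 against 11.4, 11.7 and 11.5 (-1.05). Among 3074 passing probes with no gene symbol the sets did not overlap in 20.3%, and 5 were higher and 25 lower in replicates 1, 5 and 6 by at least 2-fold.

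The split by replicate number was then tested in the groups that had not been used to choose it. In limma fits of the 17 arrays outside WT 2D, replicates 1, 5 and 6 were set against 2, 3 and 4 within each group. In ErbB2* cells in 2D 0 genes (0%) passed an adjusted p of 0.05, and 262 (2.39%) had an unadjusted p under 0.05. In ErbB2* cells in 3D 0 genes (0%) passed and 360 (3.29%) had an unadjusted p under 0.05. In WT cells in 3D, where replicates 1 and 5 faced 2, 3 and 4, 1 gene (0.00913%) passed and 3258 (29.7%) had an unadjusted p under 0.05. Leaving out replicate 5 left replicate 1 alone in its arm, its spread assumed to be that of the other groups, and then 1 gene (0.00913%) passed and 408 had an unadjusted p under 0.05.

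With the dim replicate 5 included, the gene that passed was SPIN2B, a spindlin family member. It was 7.08 and 9.38 on replicates 1 and 5 and 4.59, 4.96 and 4.69 on replicates 2, 3 and 4 (log2 difference 3.48, limma adjusted p = 0.0374). The median of the 185 genes over the number split was -0.04 in ErbB2* cells in 2D, 0.09 in ErbB2* cells in 3D and -0.78 in WT cells in 3D. The last value was 0.01 without WT 3D replicate 5. IRF1 differed by 0.13 (SE 0.44, limma adjusted p = 1), -0.35 (SE 0.44, adjusted p = 1) and 1.24 (SE 0.492, adjusted p = 0.138) in the same groups, and by 0.32 (SE 0.462, adjusted p = 0.999) in WT 3D without replicate 5, again with 1 array in that arm. None of the 216 set genes passed in any of these splits.

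The set genes were also followed in comparisons that use no WT 2D array, between culture forms and between lines. From 2D to 3D in ErbB2* cells 2302 genes (21%) passed, 9.59% higher and 11.4% lower. Of the 185 genes 19 rose and 3 fell, with a median log2 change of 0.22 beside -0.02 for all genes. Of the 31 genes 0 rose and 6 fell (median -0.30). Together 11.9% of the 185 and 19.4% of the 31 were called, beside 21% of all genes. Without WT 3D replicate 5, which shares the estimate of spread, 4212 genes (38.5%, 18.1% higher and 20.3% lower) passed. Of the 185 genes 75 had then risen and 10 fallen (45.9%), and of the 31 genes 1 had risen and 13 fallen (45.2%).

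VSTM2L rose the most among set genes, at 2.21 on the log2 scale (SE 0.298, limma adjusted p = 3.21e-05), followed by FBLIM1, an actin and filamin linker of cell-matrix contacts (1.15), and SMTN, the actin-binding smoothelin (1.13). GSDMD, the pore-forming gasdermin of pyroptosis, fell by 1.96 on the log2 scale (SE 0.301, adjusted p = 1.31e-04), MIF4GD by 1.37 and CDT1 by 0.97. VSTM2L, FBLIM1 and SMTN were among the 185, and the 3 that fell among the 31. CDC42BPB rose by 0.77 (adjusted p = 0.00653). IRF1 changed by 0.43 and did not pass (adjusted p = 0.459).

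Between ErbB2* and WT cells in 3D 2187 genes (20%) passed, 10.3% higher and 9.62% lower. Of the 185 genes 33 were higher and 4 lower (median 0.49 beside 0.04 for all genes), and of the 31 genes 4 were higher and 7 lower. Together 20% of the 185 and 35.5% of the 31 were called, beside 20% of all genes. Without WT 3D replicate 5 it was 49 and 16 of the 185 (median 0.17), 5 and 9 of the 31, and 3269 genes (29.8%, 14.9% higher and 15% lower) in all. Then 35.1% of the 185 and 45.2% of the 31 were called. ADAMTSL4 was higher in ErbB2* cells by 2.75 (SE 0.292, limma adjusted p = 1.98e-06), the synaptic vesicle gene SYN1 by 2.51 and IRF1 by 2.48 (SE 0.365, adjusted p = 8.07e-05). PRSS8 differed by -2.40 and was thus lower in ErbB2* cells (SE 0.218, adjusted p = 2.8e-07), MIF4GD by -1.18 and ELMO3 by -1.07. IRF1 was higher by 2.90 without WT 3D replicate 5. The WT 3D mean log2 signal was 6.28 with that array and 6.68 without it for ADAMTSL4, and 8.58 and 8.68 for PRSS8. SYN1, MIF4GD and ELMO3 are given with it only.

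The study's comparisons against WT cells in 2D were repeated with each set alone. These versions share the ErbB2* or the WT 3D arrays, and their WT arrays were picked by their values, so they are set side by side and the difference between them was not tested. ErbB2* against WT in 2D gave 1436 genes (13.1%) with all 6 WT arrays, 855 (7.81%) with replicates 1, 5 and 6 and 1783 (16.3%) with replicates 2, 3 and 4. Without WT 3D replicate 5 these counts were 2543 (23.2%), 1646 (15%) and 3334 (30.4%).

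The set genes and IRF1 were chosen by the WT 2D arrays that enter these fits, so the direction and number of their calls follow from that choice. They are given as a description, and nothing is read from them against the shares of all genes. With all 6 WT arrays 20 of the 185 genes were lower in ErbB2* cells and 0 higher, beside 5.33% of all genes lower and 7.78% higher. With replicates 1, 5 and 6 it was 1 lower and 8 higher, beside 3.53% and 4.27%. With replicates 2, 3 and 4 it was 110 lower and 0 higher, beside 6.59% and 9.69%. Of the 31 genes 12, 3 and 24 were higher in the 3 versions and none lower. Without WT 3D replicate 5, 13, 5 and 29 of the 31 were higher and 0, 2 and 0 lower. Without WT 3D replicate 5, which enters the estimate of spread, 63, 8 and 174 of the 185 were lower, beside 10.5%, 7.07% and 13.7% of all genes, and 1, 21 and 0 were higher, beside 12.7%, 7.96% and 16.7%. The log2 difference of CDC42BPB was -1.07, 0.05 and -2.20 in the 3 versions, and that of IRF1 was 2.30, 1.38 and 3.23.

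Interferon-stimulated genes were higher in ErbB2* cells whichever WT set was used. Of 43 tested, 27 rose with all WT arrays (median 0.92). It was 24 with replicates 1, 5 and 6 (median 0.92) and 23 with replicates 2, 3 and 4 (median 0.99), and none fell. Among all genes 7.78%, 4.27% and 9.69% were higher in the 3 versions, and 5.33%, 3.53% and 6.59% lower. All 5 MHC class II genes were higher in each version. Of the 17 adherens junction and desmosome genes 4, 3 and 3 were lower and none higher, with medians of -0.54, -0.51 and -0.56. That list was singled out above by the WT 2D arrays that enter these fits. The list counts here are given only with WT 3D replicate 5 in the estimate of spread. The log2 difference of LAMB3 was -1.74, -1.40 and -2.08, and that of DSG3 -0.83, -0.51 and -1.16, both named for their difference between the sets.

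3D against 2D in WT cells gave 3246 genes (29.6%) with all WT arrays in 2D, 1886 (17.2%) with replicates 1, 5 and 6 and 2901 (26.5%) with replicates 2, 3 and 4. Without WT 3D replicate 5 these counts were 3692 (33.7%), 3091 (28.2%) and 3989 (36.4%). The set genes again follow from their choice. Of the 185 genes 70, 5 and 147 were lower in 3D, beside 15.3%, 9.27% and 12.7% of all genes, and 1, 10 and 0 were higher, beside 14.3%, 7.95% and 13.8%. Without WT 3D replicate 5 it was 46, 11 and 164 lower, beside 16.6%, 14.7% and 17.7%, and 5, 40 and 3 higher, beside 17.1%, 13.5% and 18.7%. IRF1 differed by 0.25, -0.67 and 1.17 in the 3 versions, and by -0.17, -1.09 and 0.76 without WT 3D replicate 5, so its sign depended on the WT 2D arrays used.

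**Figure D5:**
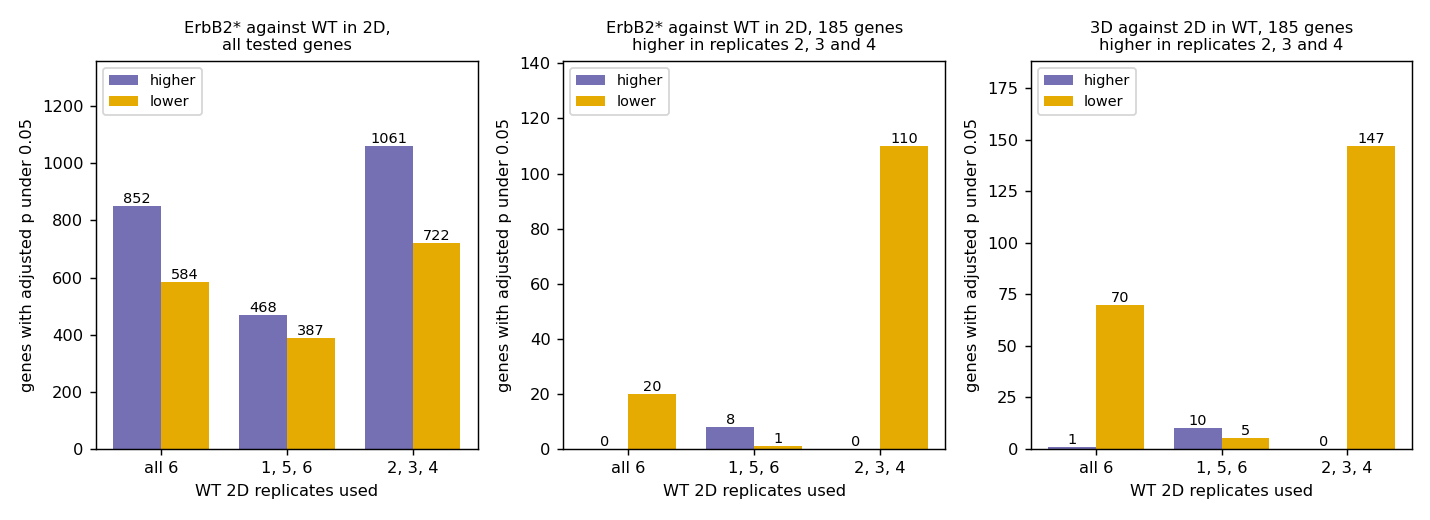
Genes with an adjusted p under 0.05 in limma, higher (purple) and lower (yellow) in the first-named group, by the WT 2D replicates used on the horizontal axis. The left panel counts all tested genes for ErbB2* against WT in 2D, the middle panel the 185 genes in the same comparison and the right panel the 185 genes in WT 3D against WT 2D; 20, 1 and 110 of the 185 are lower in the middle panel and 70, 5 and 147 in the right one, as the choice of these genes implies.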

How the data were processed

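Total RNA of 23 samples was labelled with biotin and hybridised to single-colour Illumina bead arrays, 1 array a sample, per the labels. The authors deposited the linear intensity of each of 48803 probes as scanned, per the file headers, and a detection p-value beside it. The second table holds log2 values that the authors normalised between arrays before they deposited them. Its scale was read from slopes of 0.948 to 1.02 per log2 unit of raw intensity on 22 arrays. For the software and that normalisation, the sources used here give no name.

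Raw intensities were background-corrected and quantile normalised over 23 arrays with neqc (limma 3.58.1, R 4.3.3, offset 16) and taken to log2. Of the probes 28098 had 1 symbol in the platform annotation, 13 had several and 20692 none, and 28059 matched a current gene by Entrez ID. A detection p under 0.05 on at least 5 arrays kept 17689 probes, 14612 with 1 symbol, and the brightest probe stood for each of 10954 genes. A probe not detected on a set has only a bound there. Its fold is then at least the brighter set's mean over the dim set's, with each dim array raised to its lowest detected signal where below it. No Illumina chip or scan field is used here. The number of arrays limits precision.

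Tests were limma fits over all genes (two-sided, Benjamini-Hochberg, threshold 0.05), with 11 residual degrees of freedom for the number splits, 14 for the comparisons outside WT 2D and 19 for those with all 23 arrays. The fitting code was tested on simulated data. The members and lists were chosen with earlier results of these data known. Named genes were IRF1, the 10 highest and 10 lowest differences among genes whose sets did not overlap, the 2 largest such members of each of the 8 lists whose median lay farthest from that of all genes, and the 3 highest and lowest changes past the threshold in the other groups. The last clause was read over set genes for the comparisons outside WT 2D and over all genes for the number splits. Other list members, HMGA1 and RNA28SN5 were named after their values were seen. A replicate number is not known to pair samples. Deviations of same-numbered arrays correlated at -0.12 to 0.18. Between WT 2D and WT 3D 4 of 5 pairs passed 0.1. It was 1 of 6 between WT and ErbB2* in 2D, 0 of 6 between the ErbB2* groups and 0 of 5 between the lines in 3D. As not every pair passed, no block was used.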

Additional observations from a re-analysis of the deposited data

Results flagged for a closer look

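Replicate 5 of WT cells in 3D lay farther from its group than Dixon's test allows on 4 measures, of 53 measures checked. Chance gives about 1 such case in 20 groups. Its mean probe signal was 150.6, against 395.1 to 482.9 on the other 4 arrays, and 19.1% of its probes were detected, against 31.5% to 33.8%. Its IRF1 log2 signal was 9.20, against 7.04 to 7.37. The gene-centred median of the 185 genes higher in WT 2D replicates 2, 3 and 4 was -1.68, against -0.16 to -0.11.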

How the results depend on the processing

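The 216 set genes became 56 (2 higher and 54 lower in replicates 1, 5 and 6) without background correction, 75 (4 and 71) with normexp at an offset of 50, 28 (0 and 28) with the deposited log2 values and 977 (368 and 609) at 1.5-fold. They stayed within 1.5 times under median scaling, other detection filters and the mean over probes. With 1 WT 2D replicate left out they numbered 207 to 257. By 2 alternatives chosen after seeing the data there were 221 without the dim WT 3D array and 207 with the 6 WT 2D arrays normalised alone. Over 34 named genes and 507 alternative values, 429 lay within 1 SD of the main value and 1 changed sign, CDKN1A at -0.32 over the mean of its probes.

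The number split called 0 genes in both ErbB2* groups under every alternative run. In WT 3D it called 0 in place of 1 without background correction, with normexp at an offset of 50, under median scaling, with the deposited values, with the stricter filter, with the mean over probes and in a fit of that group alone, and 3 with no filter. With 1 replicate left out it called 0 to 6502. The 6502 came without replicate 1, which left the dim replicate 5 alone in its arm, its spread assumed to be that of the other cells. IRF1 in this split was -0.095 under median scaling, and in the ErbB2* 3D split it ranged from -0.89 to 0.011, the latter without replicate 1.

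Of the 28 set genes called between ErbB2* 3D and 2D there were 6 under median scaling, 96 with the deposited values and 21 to 99 with 1 array left out, 99 being without WT 3D replicate 5. Of the 48 between ErbB2* and WT in 3D there were 23, 89 and 37 to 79 in turn, 79 being without that array. The 1436 genes of ErbB2* against WT in 2D became 633 (482 higher and 151 lower) under median scaling, 2737 with the deposited values, 1214 to 2543 with 1 array left out (2543 without WT 3D replicate 5) and 855 without WT 2D replicates 2, 3 and 4. The 3246 genes of 3D against 2D in WT became 1265 (202 and 1063) under median scaling, 2772 to 3692 with 1 array left out and 1886 without WT 2D replicates 2, 3 and 4. Median scaling moved the median of all genes by over 0.1, to 0.20, -0.35, 0.40 and -0.14 for ErbB2* against WT in 2D, 3D against 2D in WT, ErbB2* against WT in 3D and 3D against 2D in ErbB2*.

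IRF1 in 3D against 2D of WT cells, 0.25 as reported, turned negative at -0.35 under median scaling, -0.072 with the deposited values, -0.0063 without WT 2D replicate 2, -2.6e-04 without replicate 3, -0.17 without WT 3D replicate 5 and -0.67 without WT 2D replicates 2, 3 and 4. With 1 array left out it ranged from -0.17 to 0.47. None of these passed the threshold. Without WT 2D replicates 2, 3 and 4 and WT 3D replicate 5 together, IRF1 was -1.09 and did pass (limma adjusted p = 0.00608). The WT 2D arrays of that version were picked by their values, so nothing is read from that p-value. The cause of these changes was not tested. With the replicate number as a block, 28, 35, 1318 and 2957 genes were called in these 4 comparisons, each within 1.5 times of the count without it. Probes near background limit both the size of a fold and which genes can be compared.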
